A study of Mus musculus with 13 samples.

Results

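The tissue by genotype interaction of Hmox2 loss is, for each gene, the log2 fold change between Hmox2-/- and wild-type hearts minus the log2 fold change between Hmox2-/- and wild-type aortic endothelial cells (ECs). A positive interaction means that the effect of the deletion was more positive in heart than in ECs, and a negative one that it was more negative. It was fitted in 1 model of tissue, genotype and their product over all 13 libraries of the series, and tested in 15938 of the 36109 genes listed. RNA was sequenced from whole hearts of 4 wild-type and 3 Hmox2-/- mice and from aortic ECs of 3 wild-type and 3 Hmox2-/- mice. The Hmox2-/- mice carried a deletion of Hmox2 for which no cell-type-specific driver is named, the wild-type (Hmox2+/+) mice were littermates, all were kept in room air and were, in the study's words, young, and their sex was not stated in the sources used here. The sources do not say which heart and EC libraries came from 1 mouse. EC RNA was collected by flushing the lumen of the aorta with lysis reagent, so cells other than ECs can contribute to it, while heart RNA came from pulverised whole organs. Libraries are named by tissue, genotype and number (heart WT 1 to 4, heart KO 1 to 3, EC WT 1 to 3, EC KO 1 to 3).

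Hmox2 encodes the constitutive heme oxygenase, which cleaves heme to carbon monoxide, biliverdin and iron. Heme is made in mitochondria and is carried by the cytochromes of the respiratory chain, by guanylyl cyclase and by the clock receptors NR1D1 and NR1D2, and carbon monoxide binds several of these heme proteins. Cardiomyocytes are filled with mitochondria and burn mainly fatty acids, whereas aortic ECs rely largely on glycolysis and line a vessel wall of smooth muscle.

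Total estimated counts were 7268626 to 31619776 in wild-type hearts, where heart WT 1 was the shallowest, and 26067147 to 31138642 in the EC groups. Levels are given in counts scaled to a common library size (CPM), with trimmed mean of M-values (TMM) factors. Hmox2 itself (chr16:4544216-4589816, GRCm39) was 51.9, 54.9, 47.4 and 49.5 CPM in wild-type hearts and 11.3, 9.61 and 10.1 CPM in Hmox2-/- hearts. In ECs Hmox2 was 57.7, 50.4 and 48.7 CPM in wild-type ECs and 9.40, 9.84 and 10.8 CPM in Hmox2-/- ECs. All Hmox2-/- libraries of both tissues lay below the wild-type libraries, and the fall did not differ past the threshold between tissues with an interaction of 0.08 (SE 0.15, adjusted p = 0.709), but it did with the length and GC offset described below, where it was -0.58 (adjusted p = 0.0236). Of the 31-base words in the Hmox2 transcripts, 73.4% also occur in another gene, so its remaining counts cannot be assigned to it with certainty. The 4 Y-linked genes examined summed to 113 to 147 CPM in 4 EC libraries but to 4.84 and 5.24 CPM in the libraries EC KO 2 and EC KO 3, and to 127 to 220 CPM in every heart. These are levels of female mice in EC KO 2 and EC KO 3, unlike all other libraries, so in ECs sex is partly mixed with genotype. By the same levels EC KO 2 and EC KO 3 do not share a mouse with any heart library. Counts over all genes and those of the main gene lists are therefore also given without EC KO 2 and EC KO 3.

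The effect of Hmox2 loss differed between heart and ECs for a large share of genes. In edgeR's quasi-likelihood test, with p adjusted after Benjamini and Hochberg (limit 0.05) and a difference of at least 2-fold, 1288 genes (8.08%) had a more positive effect in heart and 1168 (7.33%) a more negative one. At the adjusted p alone, which is the rule used for the gene lists below, 2579 genes (16.2%) were more positive and 2017 (12.7%) more negative in heart, 4596 in all. The median interaction over all genes was 0.03. With upper-quartile in place of TMM normalization, the 2-fold counts were 1036 more positive and 1393 more negative, a share of 42.7% positive against 52.4%, and the median moved to -0.07. Tested against a null difference of 2-fold, 216 and 306 genes passed. Without EC KO 2 and EC KO 3, which leaves 1 Hmox2-/- EC library that is assumed to vary like the others, 797 and 521 passed.

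**Figure D1:**
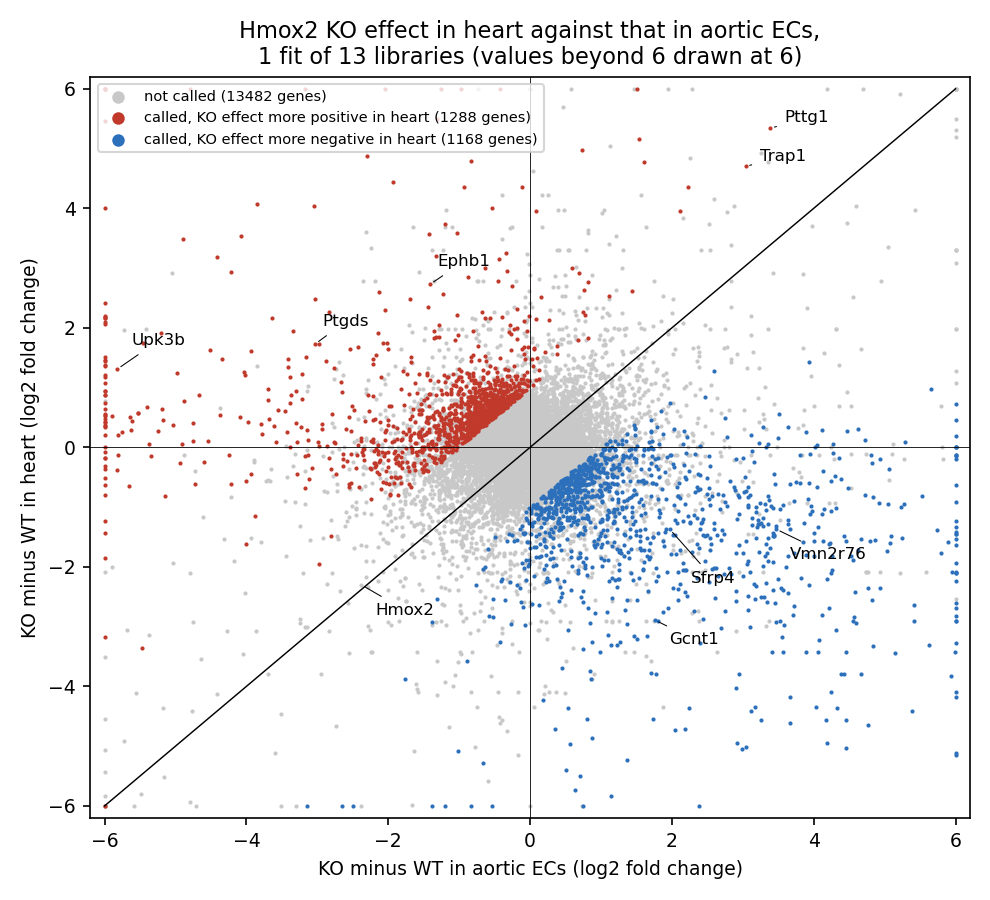
Log2 fold change between Hmox2-/- and wild-type mice in ECs (x axis) and in hearts (y axis) for the 15938 genes tested, with values beyond 6 drawn at 6 and colours for genes past the interaction test in each direction. Points off the diagonal differ between tissues; Trap1 and Pttg1 rose in both tissues, and Upk3b, Ptgds, Gcnt1, Vmn2r76, Ephb1 and Sfrp4 moved in opposite directions.

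Most of the differences came from a change that passed in 1 tissue. Of the 15938 genes tested, 3819 passed for the heart effect and 4319 for the EC effect, rises and falls together. Counts of list members that rose or fell in a tissue, given below, are to be read beside these totals. Among the 2579 genes with a more positive effect in heart, 988 (38.3%) fell in Hmox2-/- ECs and did not pass in heart, and 844 (32.7%) rose in Hmox2-/- hearts and did not pass in ECs. Among the 2017 with a more negative effect in heart, 818 (40.6%) rose in ECs and did not pass in heart, and 633 (31.4%) fell in heart and did not pass in ECs. 69 of the 4596 genes changed in the same direction in both tissues with a different size, and 287 and 279 passed for the interaction but in neither tissue. A further 678 genes (14.8% of the 4596) passed all 3 tests with opposite signs: 410 (2.57% of genes tested) rose in Hmox2-/- hearts and fell in Hmox2-/- ECs, and 268 (1.68%) fell in hearts and rose in ECs. The count of opposite genes depended on single libraries. It was 330 without EC KO 3, 342 without heart KO 2, 358 without heart KO 1, 416 without heart WT 3, 434 without heart WT 4 and 449 without EC WT 2, and at most 951 without any 1 library.

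Gene length and base composition moved with the interaction. Over quintiles of genes by transcript length, the median interaction went from 0.58 in the shortest quintile to -0.33 in the longest, and most of this gradient lay in the hearts, where the median effect went from 0.39 to -0.36, against -0.19 to -0.01 in ECs. In the shortest quintile 34.0% of genes were more positive in heart and 4.17% more negative, and in the longest 5.14% and 23%. Over quintiles of GC content the median interaction went from -0.55 in the lowest to 0.36 in the highest, with median effects of -0.26 and 0.11 in hearts and 0.29 and -0.24 in ECs. An offset that removes each library's trend with length and GC content brought the medians of all quintiles to between -0.02 and 0.08. With that offset 743 genes were more positive and 850 more negative past 2-fold, 1967 and 1515 passed the adjusted p alone, and 275 changed in opposite directions. Values with this offset are therefore given beside the gene groups below, many of which are made of short genes.

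**Figure D2:**
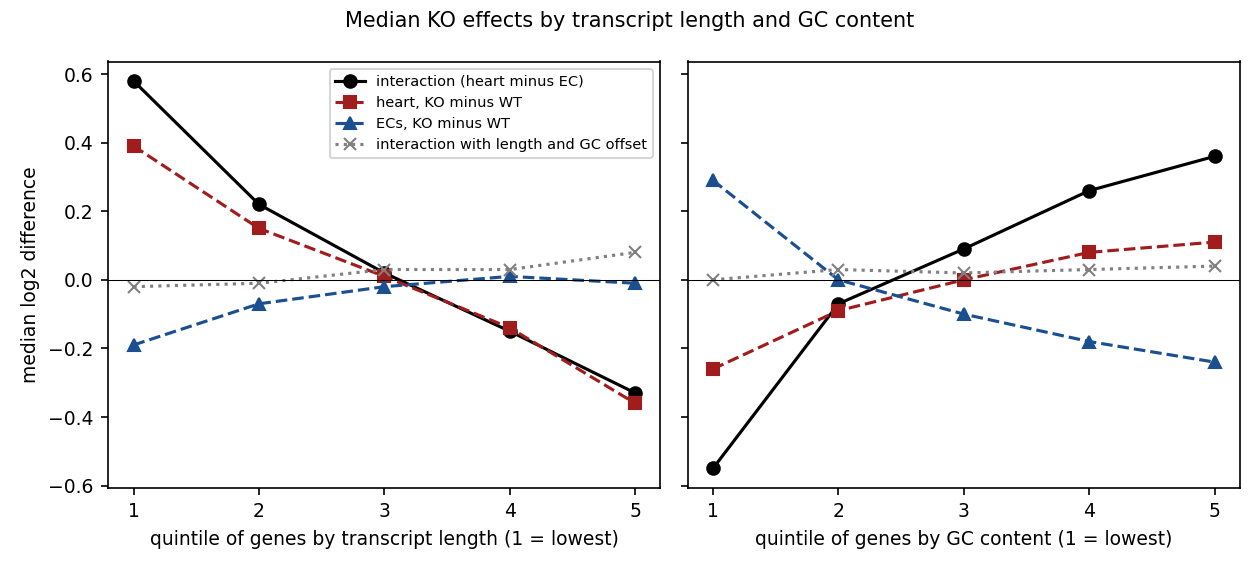
Median log2 effect (y axis) in hearts, in ECs and for the interaction, with and without the offset, over quintiles of the 15938 genes by transcript length and by GC content (x axis, quintile 1 lowest). The interaction falls from 0.58 to -0.33 with length and rises from -0.55 to 0.36 with GC content, and lies near 0 in every quintile with the offset.

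Of 32 lists of processes, 3 of nuclear genes for mitochondrial proteins had the largest shares of members with a more positive effect in heart, though not with the length and GC offset. 35 of 36 nuclear complex I subunits, 42 of 44 subunits of complexes II to V and 75 of 78 mitochondrial ribosomal proteins were more positive in heart, against 16.2% of all genes. None of the 36, 44 and 78 was more negative by edgeR, DESeq2 or limma voom, nor at an unadjusted p under 0.05, against 12.7% of all genes. By share, cardiac contraction genes (30 of 36), tricarboxylic acid cycle genes (14 of 22), cardiac stress genes (14 of 23) and proteasome subunits (23 of 41) were next. The tricarboxylic acid cycle, glycolysis, proteasome, cardiac stress and NRF2 lists also held no more negative member by any of the 3 tools, with 0, 1, 0, 1 and 1 at an unadjusted p under 0.05. Mitochondrially encoded subunits and the unfolded protein response had the largest shares with a more negative effect, 6 of 13 and 8 of 31. With the offset, cardiac contraction (29 of 36) and tricarboxylic acid cycle genes (12 of 22) had larger shares than the mitochondrial ribosome (36 of 78), complexes II to V (18 of 44) and complex I (12 of 36). Members of a list are not independent, and no list was tested as a set.

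**Figure D3:**
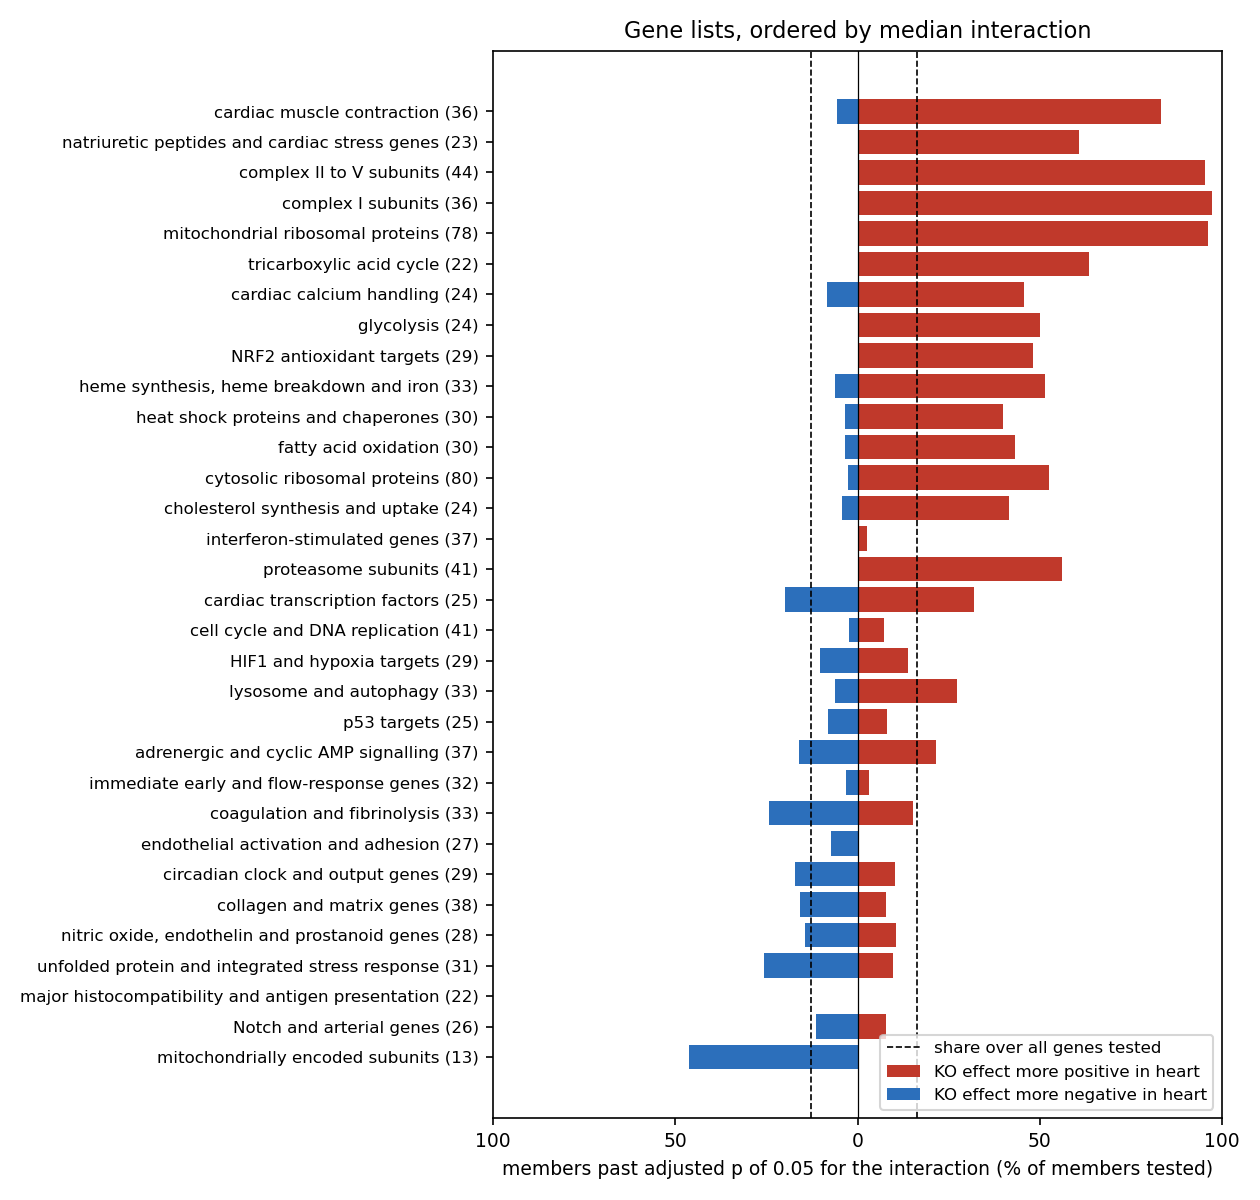
Percent of the members of each of 32 process lists whose KO effect was more positive (right) or more negative (left) in heart at an adjusted p of at most 0.05, with dashed lines at the shares of all genes tested, 16.2% and 12.7%. Respiratory chain and mitochondrial ribosome lists reach the farthest right.

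Several of these counts were lower without EC KO 2 and EC KO 3, a fit that leaves 1 Hmox2-/- EC library. Calls over all genes were fewer as well, and list medians moved either way. The median interaction went from 1.20 to 1.32 for complex I, 1.01 to 1.35 for the tricarboxylic acid cycle and 0.86 to 1.25 for glycolysis. It went from 1.03 to 0.98 for mitochondrial ribosomal proteins, 3.74 to 3.29 for cardiac contraction and 0.62 to 0.49 for cytosolic ribosomal proteins. Without both, 978 genes were more positive and 671 more negative of 16964 tested at the adjusted p alone. More positive members then numbered 32 for complex I, 33 for complexes II to V, 23 for cardiac contraction, 16 for the tricarboxylic acid cycle, 14 for glycolysis, 7 each for heme and iron, for cholesterol and for cardiac stress genes, 6 each for fatty acid oxidation, the proteasome and calcium handling, and 4 each for heat shock proteins and cardiac transcription factors. No lysosome gene passed, with 6 more positive and 3 more negative at an unadjusted p under 0.05. More negative members numbered 5 for the unfolded protein response, 3 for collagen and matrix and 2 for coagulation.

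Nuclear genes of the respiratory chain rose in Hmox2-/- hearts and fell in Hmox2-/- ECs. Of 36 complex I genes 27 rose in hearts and 31 fell in ECs, and of 44 genes of complexes II to V 30 rose and 26 fell. Complex I, which takes electrons from NADH, had a median interaction of 1.20, from a median of 0.61 in hearts and -0.60 in ECs, and 22 of its 36 members passed all 3 tests with opposite signs. Complexes II to V, which pass electrons on to oxygen and make ATP, had a median interaction of 1.26, from a median of 0.62 in hearts and -0.57 in ECs. Relative to the wild-type mean of the tissue, the median complex I gene stood at 182, 153 and 126% in heart KO 1 to 3 and at 58.4, 78.7 and 62.2% in EC KO 1 to 3, with 116, 109 and 79.9% in EC WT 1 to 3. EC WT 3 was thus close to EC KO 2, and heart KO 1 was the farthest from wild type. With the length and GC offset the heart medians were 0.1 and 0.12 and the EC medians -0.33 and -0.31, so that little of the heart difference was left. The interaction medians were then 0.42 and 0.52, and 12 and 18 members were more positive. Leaving out any 1 library gave 32 to 36 for complex I, and leaving out EC KO 2 and EC KO 3 together gave 32.

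Ndufb8, an accessory subunit of complex I, was 540.3, 541, 511 and 565 CPM in wild-type hearts and 1510.4, 1049 and 757 CPM in Hmox2-/- hearts. Ndufb8 levels in ECs were 517, 548 and 356 CPM (wild-type) and 245, 297 and 222 CPM (Hmox2-/-). No ranges of Ndufb8 overlapped, with Hmox2-/- libraries higher in heart and lower in ECs. Ndufb8 had log2 fold changes of 1.03 in hearts (adjusted p = 0.00422) and -0.90 in ECs (adjusted p = 0.0105), and an interaction of 1.93 (SE 0.31, adjusted p = 8.26e-04). With the offset it was 0.94 (adjusted p = 0.00755). Ndufv3, a subunit of the NADH-binding module of complex I, was 171, 173, 167 and 161 CPM in wild-type hearts and 361, 273 and 217 CPM in Hmox2-/- hearts. In ECs Ndufv3 was 232, 225 and 160.2 CPM in wild-type and 104, 119 and 95.0 CPM in Hmox2-/- mice. For Ndufv3 genotypes were apart in both tissues, higher in Hmox2-/- hearts and lower in Hmox2-/- ECs. The interaction of Ndufv3 was 1.71 (SE 0.25, adjusted p = 4.76e-04), the difference between log2 fold changes of 0.76 in hearts (adjusted p = 0.00653) and -0.96 in ECs (adjusted p = 0.0019). Its interaction with the offset was 0.63 (adjusted p = 0.0131).

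Cox6a1, the non-muscle isoform of cytochrome c oxidase subunit 6A, was 32.4, 41.5, 33.4 and 35.4 CPM in wild-type hearts and 85.0, 72.4 and 57.2 CPM in Hmox2-/- hearts. Cox6a1 levels in ECs were 673, 797 and 477 CPM (wild-type) and 353, 353 and 273 CPM (Hmox2-/-). Cox6a1 levels were higher in every Hmox2-/- heart and lower in every Hmox2-/- EC library than in wild type. Its interaction was 1.99 (SE 0.27, adjusted p = 3.17e-04), from log2 fold changes of 1.00 in hearts (adjusted p = 0.00245) and -0.99 in ECs (adjusted p = 0.00245). Cox6a1 was the respiratory gene among the 10 with the largest opposite effects. Cox8a, a small subunit of the same complex, was 55.5, 63.0, 53.6 and 58.3 CPM in wild-type hearts and 132, 114 and 81.5 CPM in Hmox2-/- hearts. In ECs Cox8a was 413, 462 and 318 CPM in wild-type and 269.5, 269 and 213 CPM in Hmox2-/- mice. Cox8a was thus higher in every Hmox2-/- heart and lower in every Hmox2-/- EC library. Cox8a had log2 fold changes of 0.92 in hearts (adjusted p = 0.00237) and -0.67 in ECs (adjusted p = 0.0143), and an interaction of 1.59 (SE 0.25, adjusted p = 7.20e-04). With the offset the interactions were 0.91 (adjusted p = 0.00494) for Cox6a1 and 0.48 (adjusted p = 0.0289) for Cox8a.

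Promoters of the respiratory genes are shown because nuclear respiratory factor 1 (NRF1) is a well-known regulator of this gene class. RefSeq promoters (GRCm38.p6, 250 bases before to 50 after the start) were matched for 32 complex I genes, 20 of complexes II to V and 69 mitochondrial ribosomal protein genes. The NRF1 core CGCATGCG, which reads the same on both strands, was found in 2 (6.25%; Ndufa8 and Ndufa11), 3 (15%; Cox6a1, Uqcr11 and Uqcrc1) and 7 (10.1%) of them, against 2.07% of 27025 genes with a promoter and 3.79% of the 11611 of these that were tested. The match is a description of the sequence and not a measured site. The stretches before the start of Cox6a1 (chr5:115348990-115349139, minus strand) and Ndufa8 (chr2:36049339-36049488, minus strand) follow, 5′ to 3′, with the core in capitals.
Cox6a1: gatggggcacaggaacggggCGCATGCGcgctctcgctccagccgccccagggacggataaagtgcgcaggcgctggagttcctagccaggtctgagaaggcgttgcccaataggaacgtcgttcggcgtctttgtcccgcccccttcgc
Ndufa8: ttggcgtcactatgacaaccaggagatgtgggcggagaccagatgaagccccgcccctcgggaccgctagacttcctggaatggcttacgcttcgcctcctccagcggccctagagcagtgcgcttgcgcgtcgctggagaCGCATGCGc
Ndufa8, a complex I subunit, was 258, 255.4, 219.9 and 236 CPM in wild-type hearts and 426, 368 and 325 CPM in Hmox2-/- hearts. In ECs Ndufa8 was 166, 162 and 116 CPM in wild-type ECs and 75.5, 105 and 79.4 CPM in Hmox2-/- ECs. Its genotypes did not overlap in either tissue, and the interaction was 1.39 (SE 0.23, adjusted p = 9.82e-04).

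Mitochondrial ribosomal proteins, which are made in the cytosol and assemble the ribosome that translates the mitochondrial genome, had a median interaction of 1.03, from a median of 0.60 in hearts and -0.40 in ECs, and 31 of 78 passed with opposite signs. Their median gene stood at 175, 149 and 129.7% of the wild-type mean in heart KO 1 to 3 and at 78.8, 82.3 and 71.3% in EC KO 1 to 3, with 111, 107 and 83.0% in EC WT 1 to 3. With the offset the median was 0.45 and 36 were more positive, against 45 without EC KO 2 and EC KO 3. Mrpl38, a protein of the large subunit, was 41.8, 50.5, 44.7 and 45.1 CPM in wild-type hearts and 75.0, 70.6 and 66.7 CPM in Hmox2-/- hearts. Mrpl38 levels in ECs were 55.8, 57.4 and 42.9 CPM (wild-type) and 33.4, 32.5 and 27.0 CPM (Hmox2-/-). No ranges of Mrpl38 overlapped, with Hmox2-/- libraries higher in heart and lower in ECs. For Mrpl38 the log2 fold changes were 0.63 in hearts (adjusted p = 0.00277) and -0.75 in ECs (adjusted p = 0.00105), giving an interaction of 1.38 (SE 0.17, adjusted p = 2.03e-04). Mrpl2 and Mrpl34, also of the large subunit, had interactions of 1.44 (SE 0.20, adjusted p = 4.41e-04) and 1.64 (SE 0.24, adjusted p = 4.99e-04).

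The subunits encoded by mitochondrial DNA went the other way. 10 of the 13 fell in Hmox2-/- hearts and none passed in ECs, with a median interaction of -1.16, from a median of -1.18 in hearts and 0.11 in ECs. 6 passed for the interaction, all past 2-fold, and 2 did with the offset. The offset left the heart median at -1.21 but moved the EC median to -0.60, the same sign as in hearts. The median interaction was then -0.58. The median gene was at 42.9, 45.5 and 46.2% of the wild-type mean in the Hmox2-/- hearts and at 95.1, 133 and 107% in the Hmox2-/- ECs, and EC WT 1 was at 147%. Mitochondrial transcripts held 37.6 to 44.3% of counts in wild-type hearts, 22.6 to 27.2% in Hmox2-/- hearts, 19.4 to 30.7% in wild-type ECs and 24.1 to 30.9% in Hmox2-/- ECs. mt-Nd6, the complex I subunit on the light strand, was 9898, 7915, 10974 and 11717 CPM in wild-type hearts and 3581, 4256 and 4259.8 CPM in Hmox2-/- hearts. In ECs mt-Nd6 was 2520.3, 1256 and 1134 CPM in wild-type and 1502, 2188 and 1807 CPM in Hmox2-/- mice. mt-Nd6 was lower in all Hmox2-/- hearts and overlapped in ECs. Its interaction was -1.49 (SE 0.39, adjusted p = 0.0128), from log2 fold changes of -1.33 in hearts (adjusted p = 0.00496) and 0.16 in ECs (adjusted p = 0.701). With the offset it was -0.74 (adjusted p = 0.205), which did not pass, whereas mt-Atp8, a subunit of ATP synthase, had -1.80 (SE 0.40, adjusted p = 0.00535) and -1.46 (adjusted p = 0.0175) with the offset. The range of passing members when any 1 library was left out was 4 to 12, and without EC KO 2 and EC KO 3 none passed and 5 had an unadjusted p under 0.05. Of the 13, 7 have at least 20% of their words in common with another gene. In bulk RNA, fewer cells of a type and less RNA per cell cannot be told apart.

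**Figure D4:**
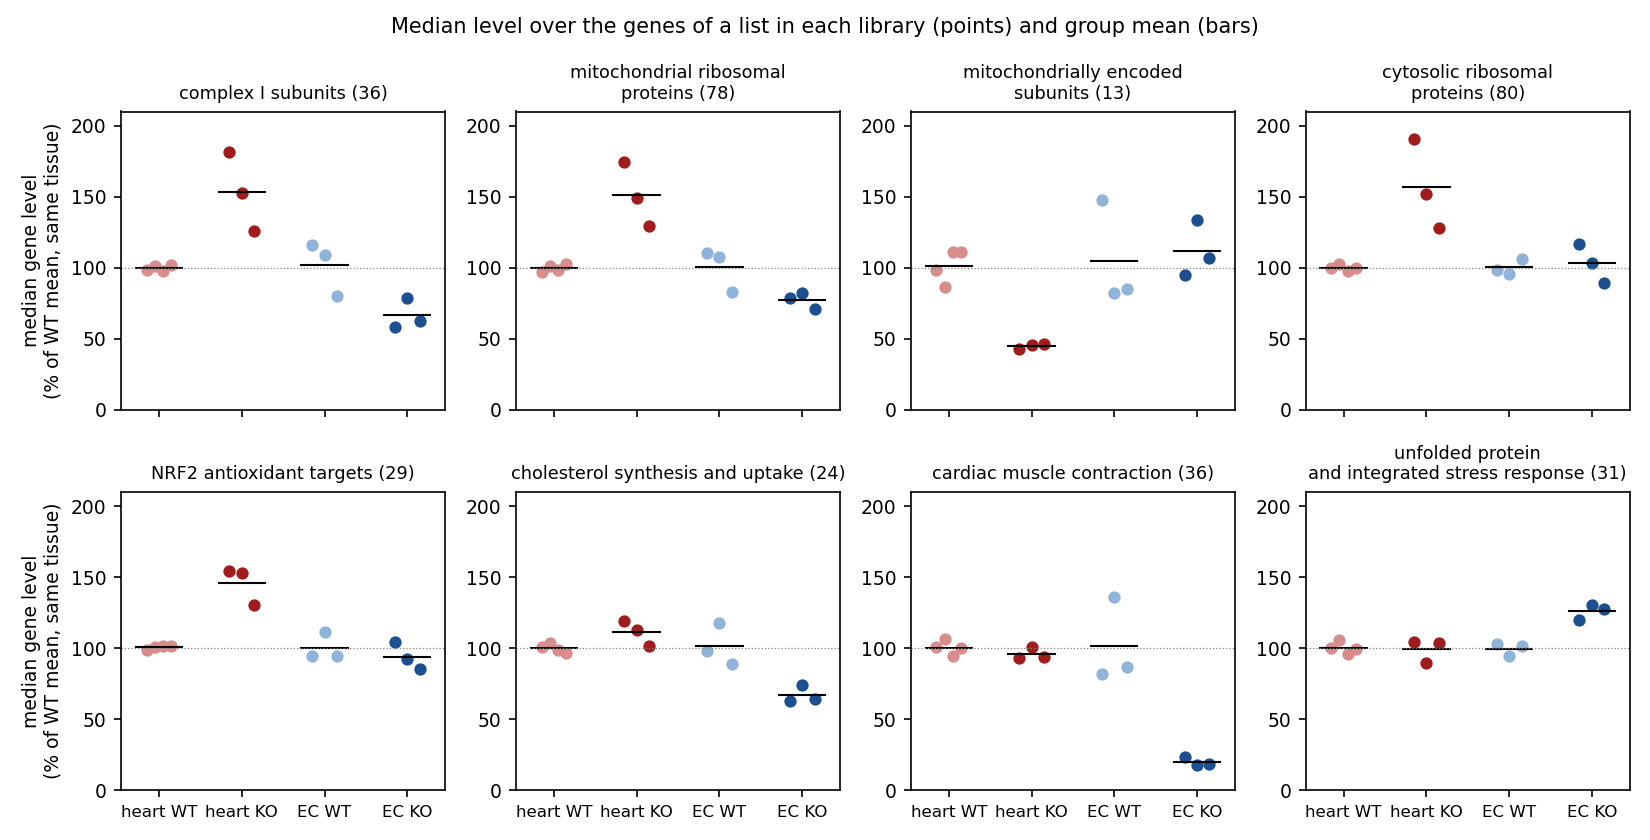
Median level of 8 gene lists in each library, as percent of the wild-type mean of the same tissue (y axis), for wild-type and Hmox2-/- hearts and ECs. Complex I and the mitochondrial ribosome lie above 100% in all Hmox2-/- hearts and below it in all Hmox2-/- ECs, and mitochondrially encoded subunits lie at 42.9, 45.5 and 46.2% in the Hmox2-/- hearts.

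Cytosolic ribosomal proteins rose in heart without a matching fall in ECs, though little of the heart rise was left with the offset. Of 80, 71 rose in Hmox2-/- hearts, while 9 rose and 3 fell in ECs, with a median interaction of 0.62, from a median of 0.64 in hearts and 0.05 in ECs. 42 of 80 had a more positive effect in heart and 2 a more negative one, whereas with the offset 2 were more positive and 17 more negative, and the median turned to -0.17. The tissue medians with the offset were 0.1 in hearts and 0.32 in ECs. Their median stood at 191, 152 and 128% of the wild-type mean in heart KO 1 to 3, in the same order as complex I. When EC KO 2 and EC KO 3 were left out, 3 were more positive, and 50 of the 80 have at least 20% of their words in common with another gene. Rpl10, a protein of the large subunit and the member that was more negative past 2-fold, was 83.1, 72.7, 69.6 and 73.0 CPM in wild-type hearts and 97.2, 85.6 and 97.6 CPM in Hmox2-/- hearts. In ECs Rpl10 was 131, 104 and 137 CPM in wild-type ECs and 384, 355 and 297 CPM in Hmox2-/- ECs. All Hmox2-/- libraries of both tissues were higher than the wild-type libraries of that tissue for Rpl10, and its interaction was -1.15 (SE 0.19, adjusted p = 8.81e-04). Without EC KO 3 alone, 26 ribosomal proteins and 14 proteasome subunits were more positive. Of 41 subunits of the proteasome, which degrades tagged proteins, 23 were more positive in heart and 0 more negative, with a median of 0.50 and, with the offset, 0.14 and 7 more positive. Psmd8, of its regulatory cap, kept an interaction past the threshold with the offset, 1.35 (SE 0.18, adjusted p = 2.75e-04) without it and 0.86 (adjusted p = 0.0018) with it.

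Genes of fuel use fell in Hmox2-/- ECs, with few passing changes in heart. The tricarboxylic acid cycle list had a median interaction of 1.01, from a median of 0.26 in hearts and -0.78 in ECs. 16 of 22 fell in ECs and 1 rose in heart. For fatty acid oxidation 19 of 30 fell in ECs, and 13 of 30 had a more positive effect in heart and 1 a more negative one. For glycolysis 11 of 24 fell in ECs, and 12 of 24 had a more positive effect in heart and 0 a more negative one. With the offset, 12, 11 and 6 members were more positive. Leaving out 1 library gave 7 more positive fatty acid oxidation genes without EC KO 1 and 8 each without heart WT 1, heart WT 3, heart WT 4 or heart KO 2, and 7 more positive glycolysis genes without EC KO 3. The EC groups were close for some libraries, since the median glycolysis gene of EC WT 3 stood at 79.4% of the wild-type mean against 82.4% in EC KO 2, and the median tricarboxylic acid cycle gene at 73.9 and 74.8%. Idh3b, a subunit of the NAD-dependent isocitrate dehydrogenase, was 761, 798, 769 and 752 CPM in wild-type hearts and 1133, 1007 and 925 CPM in Hmox2-/- hearts. Idh3b levels in ECs were 779, 670.5 and 464 CPM (wild-type) and 305, 390.3 and 366 CPM (Hmox2-/-). For Idh3b genotypes were apart in both tissues, higher in Hmox2-/- hearts and lower in Hmox2-/- ECs. Idh3b had log2 fold changes of 0.41 in hearts (adjusted p = 0.088) and -0.85 in ECs (adjusted p = 0.00374), and an interaction of 1.26 (SE 0.24, adjusted p = 0.00241). Ppara, the nuclear receptor that drives fatty acid oxidation genes, was 36.7, 46.2, 42.5 and 39.7 CPM in wild-type hearts and 31.2, 33.8 and 50.8 CPM in Hmox2-/- hearts. In ECs Ppara was 96.4, 55.2 and 45.7 CPM in wild-type and 15.7, 16.5 and 20.1 CPM in Hmox2-/- mice. Genotypes overlapped for Ppara in hearts but not in ECs, where Hmox2-/- was lower. The interaction of Ppara was 1.82 (SE 0.33, adjusted p = 0.0018), the difference between log2 fold changes of -0.10 in hearts (adjusted p = 0.783) and -1.92 in ECs (adjusted p = 1.44e-04). The interactions with the offset were 0.85 (adjusted p = 0.0179) and 1.71 (adjusted p = 0.00437). Muscle enzymes were among the leading glycolysis genes, with 4.18 (SE 0.33, adjusted p = 1.15e-05) for the muscle phosphoglycerate mutase Pgam2 and 2.29 (SE 0.25, adjusted p = 7.90e-05) for the muscle enolase Eno3.

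Genes of cholesterol synthesis and uptake fell in ECs. 15 of 24 fell in Hmox2-/- ECs, against 3 that rose and 1 that fell in hearts, with a median interaction of 0.60, from a median of 0.10 in hearts and -0.63 in ECs. 10 of 24 had a more positive effect in heart and 1 a more negative one. The offset left the median at 0.65, with 9 more positive. Insig1, the sterol sensor that holds back SREBP processing and is itself an SREBP target, was 15.3, 15.9, 14.6 and 14.5 CPM in wild-type hearts and 22.8, 23.2 and 19.8 CPM in Hmox2-/- hearts. Insig1 levels in ECs were 86.2, 115 and 85.3 CPM (wild-type) and 40.3, 37.3 and 33.0 CPM (Hmox2-/-). Insig1 levels were higher in every Hmox2-/- heart and lower in every Hmox2-/- EC library than in wild type. Its interaction was 1.91 (SE 0.18, adjusted p = 2.42e-05), from log2 fold changes of 0.54 in hearts (adjusted p = 0.00808) and -1.37 in ECs (adjusted p = 1.07e-05). Fdft1, squalene synthase, was 43.0, 44.0, 45.0 and 53.01 CPM in wild-type hearts and 55.2, 52.5 and 50.03 CPM in Hmox2-/- hearts. In ECs Fdft1 was 124, 129 and 106 CPM in wild-type and 49.1, 35.7 and 26.9 CPM in Hmox2-/- mice. The heart ranges of Fdft1 overlapped, while Hmox2-/- ECs were all lower than wild type. Fdft1 had log2 fold changes of 0.18 in hearts (adjusted p = 0.438) and -1.69 in ECs (adjusted p = 2.50e-05), and an interaction of 1.87 (SE 0.24, adjusted p = 2.03e-04). Fdft1 shares 38.9% of its words with other genes. Cyp51, lanosterol demethylase, and Dhcr7, which makes cholesterol from its last precursor, had interactions of 1.38 (SE 0.23, adjusted p = 0.00111) and 1.20 (SE 0.23, adjusted p = 0.00224).

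In the heme and iron list, 17 of 33 had a more positive effect in heart and 2 a more negative one, while 13 fell in ECs and 13 rose in hearts. With the offset the median went from 0.69 to 0.40, with 11 more positive, and without EC KO 2 and EC KO 3 the more positive members were 7. Alad, the enzyme of heme synthesis that makes porphobilinogen, was 78.0, 80.0, 72.6 and 70.7 CPM in wild-type hearts and 52.98, 48.6 and 41.1 CPM in Hmox2-/- hearts. Alad levels in ECs were 91.7, 89.6 and 66.6 CPM (wild-type) and 26.2, 27.6 and 23.5 CPM (Hmox2-/-). Alad was lower in Hmox2-/- libraries of both tissues, with no overlap between genotypes. For Alad the log2 fold changes were -0.66 in hearts (adjusted p = 0.00323) and -1.68 in ECs (adjusted p = 3.38e-06), giving an interaction of 1.02 (SE 0.18, adjusted p = 0.00172). Alad fell in both tissues, and further in ECs. Blvra, biliverdin reductase, which uses a product of heme cleavage, had an interaction of 1.03 (SE 0.18, adjusted p = 0.00166), and with the offset the interactions were 0.46 (adjusted p = 0.0316) for Alad and 0.50 (adjusted p = 0.0451) for Blvra. Hmox1, the inducible heme oxygenase, was 3.22, 5.37, 5.70 and 5.11 CPM in wild-type hearts and 15.7, 32.02 and 13.01 CPM in Hmox2-/- hearts. In ECs Hmox1 was 8.13, 13.2 and 14.0 CPM in wild-type ECs and 18.8, 10.5 and 51.6 CPM in Hmox2-/- ECs. Its heart groups did not overlap and its EC groups did, with EC KO 3 the highest EC library, and the effects in the 2 tissues did not differ past the threshold with an interaction of 0.81 (SE 0.65, adjusted p = 0.373). Fth1, the ferritin heavy chain that stores iron, had an interaction of 1.10 (SE 0.25, adjusted p = 0.00522).

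NRF2 antioxidant targets rose mainly in hearts. 15 of 29 rose in Hmox2-/- hearts, 4 fell in ECs, and 14 were more positive in heart with none more negative, with a median interaction of 0.70, from a median of 0.59 in hearts and -0.15 in ECs. The median gene stood at 154, 153 and 131% of the wild-type mean in heart KO 1 to 3 and 104, 92.2 and 85.5% in EC KO 1 to 3. With the offset 8 were more positive and 2 more negative, and 4 were more positive without EC KO 2 and EC KO 3. Gsta4, a glutathione transferase that clears lipid aldehydes, was 42.2, 39.4, 38.0 and 41.7 CPM in wild-type hearts and 102, 88.6 and 81.3 CPM in Hmox2-/- hearts. In ECs Gsta4 was 34.8, 49.1 and 25.2 CPM in wild-type and 17.6, 24.9 and 17.4 CPM in Hmox2-/- mice. No ranges of Gsta4 overlapped, with Hmox2-/- libraries higher in heart and lower in ECs. Its interaction was 2.04 (SE 0.27, adjusted p = 3.23e-04), from log2 fold changes of 1.17 in hearts (adjusted p = 0.00115) and -0.86 in ECs (adjusted p = 0.0067). With the offset it was 1.48 (adjusted p = 0.00148). Mgst1, a membrane-bound glutathione transferase, had 1.11 (SE 0.23, adjusted p = 0.00374) and 0.72 (adjusted p = 0.0177) with the offset.

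Of 29 hypoxia genes, 4 (13.8%) were more positive and 3 (10.3%) more negative in heart. Both shares were below those of all genes, 16.2% and 12.7%. Hif1a, the oxygen-regulated transcription factor subunit, was 118, 94.1, 89.2 and 99.2 CPM in wild-type hearts and 53.01, 54.5 and 58.2 CPM in Hmox2-/- hearts. Hif1a levels in ECs were 50.9, 54.6 and 57.7 CPM (wild-type) and 52.7, 67.4 and 62.4 CPM (Hmox2-/-). Hif1a was lower in all Hmox2-/- hearts and overlapped in ECs. Hif1a had log2 fold changes of -0.85 in hearts (adjusted p = 3.68e-04) and 0.16 in ECs (adjusted p = 0.344), and an interaction of -1.02 (SE 0.17, adjusted p = 0.00105). With the offset it was -0.21 (adjusted p = 0.384) and did not pass. Egln1, the hydroxylase that marks HIF1A for degradation, had 0.80 (SE 0.21, adjusted p = 0.0115) and 0.78 (adjusted p = 0.0141) with the offset. Among 29 clock genes 3 (10.3%) were more positive and 5 (17.2%) more negative, against 16.2% and 12.7% of all genes. In hearts 11 of them fell, against 2 in ECs. The more negative clock genes were 1 to 3 when any 1 of 9 libraries was left out and 10 without EC KO 1, and the more positive hypoxia genes 8 without EC WT 3. Per3, a clock repressor, had an interaction of -1.90 (SE 0.51, adjusted p = 0.0137). Cdkn1a, the cell cycle inhibitor p21, which is also a p53 target, had 1.40 (SE 0.33, adjusted p = 0.00688), with log2 fold changes of 1.50 in hearts (SE 0.23, adjusted p = 9.04e-04) and 0.10 in ECs (SE 0.24, adjusted p = 0.79). Nr1d1, the heme-binding clock repressor REV-ERBalpha, was 131, 143, 113 and 96.3 CPM in wild-type hearts and 53.3, 63.2 and 66.0 CPM in Hmox2-/- hearts. In ECs Nr1d1 was 109.6, 142 and 129.8 CPM in wild-type ECs and 81.8, 137 and 112 CPM in Hmox2-/- ECs. Its heart groups did not overlap and its EC groups did, and its interaction was -0.78 (SE 0.26, adjusted p = 0.0346).

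Chaperones of the endoplasmic reticulum (ER) were among the genes that fell in hearts and rose in ECs. In the unfolded protein and integrated stress response list 3 of 31 had a more positive effect in heart and 8 a more negative one, with 5 that fell in hearts, 11 that rose in ECs and 4 that did both, and the median was -0.24 with and without the offset. Hsp90b1, the resident HSP90 of this compartment, was 513, 635, 429 and 524 CPM in wild-type hearts and 378, 290.3 and 360.4 CPM in Hmox2-/- hearts. In ECs Hsp90b1 was 308, 230.0 and 284 CPM in wild-type and 431, 429 and 381 CPM in Hmox2-/- mice. For Hsp90b1 genotypes were apart in both tissues, lower in Hmox2-/- hearts and higher in Hmox2-/- ECs. The interaction of Hsp90b1 was -1.21 (SE 0.23, adjusted p = 0.00213), the difference between log2 fold changes of -0.62 in hearts (adjusted p = 0.013) and 0.60 in ECs (adjusted p = 0.0169). Pdia6, a protein disulfide isomerase, was 106, 133, 95.3 and 110.2 CPM in wild-type hearts and 88.5, 68.6 and 76.0 CPM in Hmox2-/- hearts. Pdia6 levels in ECs were 109, 94.7 and 100.04 CPM (wild-type) and 147, 148 and 136 CPM (Hmox2-/-). Pdia6 levels were lower in every Hmox2-/- heart and higher in every Hmox2-/- EC library than in wild type. Its interaction was -1.02 (SE 0.18, adjusted p = 0.00163), from log2 fold changes of -0.52 in hearts (adjusted p = 0.0104) and 0.50 in ECs (adjusted p = 0.0132). With the offset the interactions were -0.94 (adjusted p = 0.011) and -1.14 (adjusted p = 8.11e-04). Hspa5, the chaperone BiP, had an interaction of -1.05 (SE 0.27, adjusted p = 0.0104), and Pdia4, another isomerase, -0.88 (SE 0.17, adjusted p = 0.00217). Canx, the lectin chaperone calnexin, had -0.80 (SE 0.15, adjusted p = 0.00213) and -0.37 (adjusted p = 0.0509) with the offset, which did not pass.

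Atf4, the transcription factor of the integrated stress response, was 45.4, 55.6, 48.9 and 48.3 CPM in wild-type hearts and 75.4, 62.7 and 59.3 CPM in Hmox2-/- hearts. In ECs Atf4 was 120.1, 107 and 108 CPM in wild-type and 84.0, 78.0 and 87.5 CPM in Hmox2-/- mice. Atf4 was thus higher in every Hmox2-/- heart and lower in every Hmox2-/- EC library. Atf4 had log2 fold changes of 0.41 in hearts (adjusted p = 0.0161) and -0.43 in ECs (adjusted p = 0.0139), and an interaction of 0.83 (SE 0.16, adjusted p = 0.00215). Its direction was opposite to that of the chaperones in both tissues. With the offset it was 0.45 (adjusted p = 0.022). Of 28 genes of this list with a RefSeq promoter (GRCm38.p6), 7 (25%) held the ER stress response element, CCAAT and CCACG with 9 bases between them, on either strand: Calr, Canx, Creld2, Dnajc3, Hsp90b1, Hspa5 and Pdia6. It was found in 0.137% of 27025 promoters. The stretches that hold it are shown for Hsp90b1 (chr10:86705527-86705676, minus strand), Pdia6 (chr12:17266439-17266588, plus strand) and Canx (chr11:50325689-50325838, minus strand), the 3 chaperones among the 4 members with the smallest interaction p, 5′ to 3′, with each match in capitals.
Hsp90b1: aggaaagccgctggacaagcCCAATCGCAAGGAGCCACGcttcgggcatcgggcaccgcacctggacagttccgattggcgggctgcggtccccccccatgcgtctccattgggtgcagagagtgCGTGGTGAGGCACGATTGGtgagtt
Pdia6: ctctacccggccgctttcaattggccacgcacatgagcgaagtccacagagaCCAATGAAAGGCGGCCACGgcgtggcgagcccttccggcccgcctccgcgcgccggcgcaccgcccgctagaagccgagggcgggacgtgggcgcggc
Canx: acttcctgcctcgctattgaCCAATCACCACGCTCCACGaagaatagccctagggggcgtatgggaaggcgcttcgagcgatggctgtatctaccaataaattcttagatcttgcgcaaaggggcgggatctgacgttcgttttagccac
Hsp90b1 holds a match on each strand. A match is a description and not a measured binding site.

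The largest positive interactions were of muscle and mesothelial genes, which were lower in Hmox2-/- ECs than in wild-type ECs. Cardiomyocyte markers were scarce in ECs of both genotypes beside hearts. Mesothelial markers in wild-type ECs were within or above the range of wild-type hearts. Of 36 contraction genes, 33 fell in ECs, with a median interaction of 3.74, from a median of -0.09 in hearts and -3.23 in ECs. Their median was at 93.3, 100.7 and 93.5% of the wild-type mean in Hmox2-/- hearts and at 23.3, 18.0 and 18.3% in Hmox2-/- ECs. The 15 cardiomyocyte markers summed to 78458 to 87354 CPM in wild-type hearts and 80532 to 86710.1 CPM in Hmox2-/- hearts, against 349 to 548 CPM in wild-type ECs and 97.1 to 206 CPM in Hmox2-/- ECs. The 13 fast skeletal muscle markers summed to 56.1 to 130.3 CPM in wild-type ECs and 7.53 to 16.8 CPM in Hmox2-/- ECs, where 1 was at 0 in every library. Tnnt2, cardiac troponin T, was 6683, 6821, 6834 and 7052 CPM in wild-type hearts and 8366, 8183 and 6989 CPM in Hmox2-/- hearts. Tnnt2 levels in ECs were 14.2, 55.8 and 22.1 CPM (wild-type) and 0.474, 0.370 and 0.216 CPM (Hmox2-/-). Genotypes overlapped for Tnnt2 in hearts but not in ECs, where Hmox2-/- was lower. For Tnnt2 the log2 fold changes were 0.20 in hearts (adjusted p = 0.709) and -6.42 in ECs (adjusted p = 2.76e-06), giving an interaction of 6.62 (SE 0.60, adjusted p = 2.42e-05). Ckm, muscle creatine kinase, was 2060.0, 2116, 1818 and 2001 CPM in wild-type hearts and 3339, 2819.6 and 2384 CPM in Hmox2-/- hearts. In ECs Ckm was 10.1, 13.9 and 18.9 CPM in wild-type and 0.263, 0.341 and 0.243 CPM in Hmox2-/- mice. No ranges of Ckm overlapped, with Hmox2-/- libraries higher in heart and lower in ECs. Its interaction was 6.15 (SE 0.35, adjusted p = 9.09e-07), from log2 fold changes of 0.51 in hearts (adjusted p = 0.0668) and -5.64 in ECs (adjusted p = 2.72e-08). Other muscle genes among the 12 with the largest positive interaction were Myl2, Myl3, Tnnt3, Cox6a2, Mb, Tnnc1 and Mybpc3, at 5.41 to 9.51.

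Mesothelial markers, of the cells that cover the heart and the pleura, summed to 41.9 to 49.2 CPM in wild-type hearts and 67.2 to 112 CPM in Hmox2-/- hearts, and to 43.3 to 168 CPM in wild-type and 15.2 to 18.5 CPM in Hmox2-/- ECs. 8 of 9 were more positive in heart. Upk3b, a uroplakin of mesothelium, was 12.5, 16.4, 13.3 and 14.8 CPM in wild-type hearts and 33.8, 46.9 and 26.3 CPM in Hmox2-/- hearts. Upk3b levels in ECs were 13.1, 55.6 and 62.5 CPM (wild-type) and 0.764, 0.484 and 1.05 CPM (Hmox2-/-). For Upk3b genotypes were apart in both tissues, higher in Hmox2-/- hearts and lower in Hmox2-/- ECs. Upk3b had log2 fold changes of 1.31 in hearts (adjusted p = 0.0248) and -5.82 in ECs (adjusted p = 9.27e-06), and an interaction of 7.13 (SE 0.65, adjusted p = 2.42e-05). Msln and Muc16, also of mesothelium, had interactions of 5.55 (SE 0.75, adjusted p = 3.26e-04) and 5.44 (SE 0.71, adjusted p = 2.69e-04). Smooth muscle markers summed to 2793 to 5461 CPM in wild-type ECs and 901 to 2966 CPM in Hmox2-/- ECs, and 11 of 12 were more positive in heart, or 2 without EC KO 2 and EC KO 3. Tagln, an actin-binding protein of smooth muscle, was 25.2, 24.1, 30.6 and 27.5 CPM in wild-type hearts and 77.3, 64.1 and 40.9 CPM in Hmox2-/- hearts. In ECs Tagln was 1050.1, 616 and 929.8 CPM in wild-type ECs and 709, 227 and 217 CPM in Hmox2-/- ECs. The EC ranges of Tagln overlapped, and all Hmox2-/- hearts were higher than all wild-type hearts, and its interaction was 2.35 (SE 0.53, adjusted p = 0.00537).

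Endothelial markers summed to 2676 to 3893 CPM in wild-type ECs and 4516 to 5475 CPM in Hmox2-/- ECs, and none was at 0. In hearts they summed to 941 to 1121 and 1217 to 1225 CPM. Of the 15, 7 rose and 1 fell in ECs. Pecam1 alone was 970 to 1491 CPM in wild-type and 2025 to 2307 CPM in Hmox2-/- ECs. Kdr went the other way, with 12.8 to 15.1 and 8.59 to 9.70 CPM, as did the VEGF receptor Flt1, with 18.7 to 20.6 and 13.8 to 17.0 CPM. Wild-type hearts had more of both, 111 to 148 CPM of Kdr and 87.5 to 100 CPM of Flt1. The ECs also carried the brown adipocyte gene Ucp1 (1863, 1337 and 1042 CPM in wild-type and 997, 2014 and 1863 CPM in Hmox2-/- ECs). Its groups overlapped, but of the other adipocyte markers several were lower in every Hmox2-/- EC library. 4 of 10 brown and 7 of 12 white adipocyte genes fell in ECs, among them Cidea, a lipid droplet protein of brown fat (1219.7, 1107 and 767 CPM in wild-type and 516, 724 and 450.2 CPM in Hmox2-/- ECs), Lep, leptin (32.7, 30.3 and 17.1 CPM in wild type against 2.002, 2.59 and 1.13 CPM), and Pnpla2, a triglyceride lipase (1867, 1563 and 989.5 CPM in wild type against 715, 631 and 732 CPM). No member of either list rose past the threshold in ECs. The white adipocyte genes Cfd and Retn were nevertheless higher in every Hmox2-/- EC library. Cfd was 1615, 1545 and 1224 CPM in wild-type and 2304, 1947 and 2131 CPM in Hmox2-/- ECs. Retn was 52.5, 88.9 and 68.7 CPM in wild-type and 109, 91.6 and 90.7 CPM in Hmox2-/- ECs. Brown adipocyte markers summed to 2465 to 4234 CPM in wild-type and 2030.4 to 3397 CPM in Hmox2-/- ECs, white ones to 8355 to 13184 and 7639.7 to 9407 CPM, and fibroblast markers to 4125 to 6589.9 and 7346 to 8906 CPM. Summed erythroid markers went in hearts from 252 to 462 CPM in wild type to 1182 to 1879 CPM in Hmox2-/-, and stood at 1857 to 2849 and 1459 to 2707 CPM in ECs. 7 of 11 were more positive in heart. Hbb-bs, a beta globin, was 127, 172, 94.3 and 129 CPM in wild-type hearts and 867, 575 and 493 CPM in Hmox2-/- hearts. In ECs Hbb-bs was 720.3, 1135 and 1071.2 CPM in wild-type and 1081, 572 and 935 CPM in Hmox2-/- mice. The EC ranges of Hbb-bs overlapped, while Hmox2-/- hearts were all higher than wild type. The interaction of Hbb-bs was 2.48 (SE 0.39, adjusted p = 7.44e-04), the difference between log2 fold changes of 2.31 in hearts (adjusted p = 9.26e-05) and -0.18 in ECs (adjusted p = 0.67). Alas2, the erythroid enzyme that starts heme synthesis, was 7.95, 6.44, 3.43 and 4.48 CPM in wild-type hearts and 19.97, 15.4 and 15.7 CPM in Hmox2-/- hearts. Alas2 levels in ECs were 21.7, 30.2 and 31.7 CPM (wild-type) and 30.7, 17.6 and 30.0 CPM (Hmox2-/-). Alas2 was higher in all Hmox2-/- hearts and overlapped in ECs. Its interaction was 1.78 (SE 0.36, adjusted p = 0.00331), from log2 fold changes of 1.68 in hearts (adjusted p = 9.57e-04) and -0.09 in ECs (adjusted p = 0.81). Macrophage markers were at 212 to 306 and 351 to 563 CPM in hearts and 403 to 546 and 687 to 1067.9 CPM in ECs, higher in Hmox2-/- mice of both tissues, and 2 of 12 passed for the interaction. The part of these cell types in the mitochondrial, metabolic and contractile results was not tested.

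Among the remaining markers, 5 of 6 liver, 4 of 10 brown adipocyte and 3 of 8 platelet genes were more positive in heart, against 16.2% of all genes. So were 2 of 12 white adipocyte, 1 of 12 B and plasma cell and 1 of 10 Schwann cell genes. The liver genes Alb, Apoa2, Ttr and Mup3 were at most 0.268 CPM in wild-type hearts, so their calls rest on few counts. With the offset 2 liver genes were more positive. 2 platelet genes were more negative, and none of 10 T cell genes passed by edgeR, DESeq2 or limma voom, with 0 at an unadjusted p under 0.05. Endothelial markers had 2 more positive and 4 more negative of 15, and fibroblast markers 1 and 3 of 12. Kdr, the main VEGF receptor, was more positive in heart (interaction 0.71, SE 0.18, adjusted p = 0.0101) and Tie1, a receptor of the angiopoietin system, more negative (interaction -0.98, SE 0.22, adjusted p = 0.00513).

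Lists of vessel biology held no larger share of more positive members than all genes (16.2%), and coagulation (15.2%) was close to it. Their more negative shares went from 7.41% for endothelial activation to 24.2% for coagulation, against 12.7% of all genes. Endothelial activation had 0 more positive (also 0 by DESeq2 and limma voom, and 1 at an unadjusted p under 0.05) and 2 more negative of 27, coagulation 5 and 8 of 33, Notch and arterial genes 2 and 3 of 26, nitric oxide, endothelin and prostanoid genes 3 and 4 of 28, and collagen and matrix genes 3 and 6 of 38. The more negative counts were not stable. Coagulation had 3 to 5 when any 1 of 10 libraries was left out and 5 with the offset, and without EC WT 3 the more negative members were 7 for endothelial activation, 10 for Notch and 10 for collagen. Tfpi, the inhibitor of tissue factor, was 111, 101.2, 94.3 and 117 CPM in wild-type hearts and 79.5, 75.7 and 89.0 CPM in Hmox2-/- hearts. In ECs Tfpi was 9.25, 7.34 and 11.5 CPM in wild-type and 21.3, 24.8 and 20.8 CPM in Hmox2-/- mice. Tfpi levels were lower in every Hmox2-/- heart and higher in every Hmox2-/- EC library than in wild type. Tfpi had log2 fold changes of -0.38 in hearts (adjusted p = 0.0596) and 1.25 in ECs (adjusted p = 8.97e-05), and an interaction of -1.63 (SE 0.20, adjusted p = 2.01e-04). F3, tissue factor, which starts coagulation, was 23.7, 29.1, 29.2 and 30.8 CPM in wild-type hearts and 20.9, 19.7 and 19.7 CPM in Hmox2-/- hearts. F3 levels in ECs were 68.5, 39.6 and 93.3 CPM (wild-type) and 191, 143 and 121 CPM (Hmox2-/-). F3 was thus lower in every Hmox2-/- heart and higher in every Hmox2-/- EC library. For F3 the log2 fold changes were -0.50 in hearts (adjusted p = 0.13) and 1.17 in ECs (adjusted p = 0.00305), giving an interaction of -1.68 (SE 0.33, adjusted p = 0.00278). Jam2, a junctional adhesion molecule, was 186, 199, 215 and 181 CPM in wild-type hearts and 202, 199 and 234 CPM in Hmox2-/- hearts. In ECs Jam2 was 68.2, 83.2 and 93.8 CPM in wild-type and 144, 214 and 175 CPM in Hmox2-/- mice. Genotypes overlapped for Jam2 in hearts but not in ECs, where Hmox2-/- was higher. Its interaction was -1.0 (SE 0.21, adjusted p = 0.00406), from log2 fold changes of 0.11 in hearts (adjusted p = 0.596) and 1.12 in ECs (adjusted p = 2.60e-04). With the offset these were -1.20 (adjusted p = 0.00105), -1.74 (adjusted p = 0.00365) and -0.68 (adjusted p = 0.0204). Thbd, thrombomodulin, Vwf, von Willebrand factor, and Procr, the protein C receptor, rose in both tissues, and their interactions of -0.10, 0.12 and 0.26 did not pass (adjusted p = 0.794, 0.752 and 0.48).

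Notch4, an endothelial Notch receptor, was 28.6, 31.5, 27.9 and 29.5 CPM in wild-type hearts and 21.3, 22.7 and 22.8 CPM in Hmox2-/- hearts. Notch4 levels in ECs were 33.2, 26.5 and 39.6 CPM (wild-type) and 49.8, 43.0 and 47.6 CPM (Hmox2-/-). No ranges of Notch4 overlapped, with Hmox2-/- libraries lower in heart and higher in ECs. Notch4 had log2 fold changes of -0.40 in hearts (adjusted p = 0.0302) and 0.50 in ECs (adjusted p = 0.0109), and an interaction of -0.90 (SE 0.18, adjusted p = 0.00264). Notch3, the Notch receptor of smooth muscle and pericytes, was 40.9, 38.4, 41.4 and 31.3 CPM in wild-type hearts and 24.8, 25.3 and 29.4 CPM in Hmox2-/- hearts. In ECs Notch3 was 16.2, 14.8 and 15.6 CPM in wild-type and 4.87, 3.38 and 4.51 CPM in Hmox2-/- mice. No Notch3 value of a wild-type library reached into the Hmox2-/- range, which was lower in both tissues. The interaction of Notch3 was 1.35 (SE 0.20, adjusted p = 5.37e-04), the difference between log2 fold changes of -0.51 in hearts (adjusted p = 0.0143) and -1.87 in ECs (adjusted p = 3.09e-06). Notch3 fell in both tissues, further in ECs. In the matrix list, Mmp2, a gelatinase, and Postn, periostin, had interactions of -0.98 (SE 0.21, adjusted p = 0.00436) and 1.26 (SE 0.28, adjusted p = 0.00522), and Ptgis, prostacyclin synthase, 1.14 (SE 0.27, adjusted p = 0.00741).

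The interferon, antigen presentation, immediate early, cell cycle and p53 lists had smaller shares of passing members than all genes (16.2% more positive and 12.7% more negative). Interferon-stimulated genes had 1 of 37 (none more positive and 5 more negative without EC WT 3, with the median turning from 0.51 to -0.27, where the median gene of EC WT 3 stood at 165% of the wild-type mean), antigen presentation 0 of 22 (also 0 by DESeq2 and limma voom, and 0 more positive and 2 more negative at an unadjusted p under 0.05), immediate early genes 2 of 32, cell cycle genes 4 of 41 and p53 targets 4 of 25. The interferon gene was Rsad2, which lost its call in 9 of 13 fits with 1 library left out (interaction 1.56, SE 0.53, adjusted p = 0.0395 with all). The lists that follow had larger shares of more positive members than all genes. Lysosome genes had 9 more positive and 2 more negative of 33, heat shock proteins 12 and 1 of 30, and adrenergic and cyclic AMP genes 8 and 6 of 37. Cardiac calcium handling had 11 and 2 of 24, cardiac transcription factors 8 and 5 of 25, and cardiac stress genes 14 and 0 of 23. Of the stress genes 12 fell in ECs (median -1.03), while in hearts 7 rose and 3 fell (median -0.1). The more positive lysosome genes were 5 without EC KO 2 and 3 without EC KO 3, and the more positive calcium handling genes 7 without EC KO 2. Prkaca, the catalytic subunit of protein kinase A, was more positive in heart (interaction 1.04, SE 0.21, adjusted p = 0.00271), as was Gata4, a cardiac transcription factor (interaction 2.52, SE 0.49, adjusted p = 0.00249), with EC log2 fold changes of -1.03 and -2.64. Casq2, the calcium store protein of cardiac sarcoplasmic reticulum, had 4.19 (SE 0.39, adjusted p = 2.78e-05).

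Genes outside the lists with the largest opposite effects were named by the smaller of their tissue effects. Those that rose in heart and fell in ECs come first. Ptgds, prostaglandin D synthase, was 184, 222, 169 and 262 CPM in wild-type hearts and 818, 697 and 563 CPM in Hmox2-/- hearts. Ptgds levels in ECs were 1.17, 1.96 and 1.83 CPM (wild-type) and 0.158, 0.341 and 0.108 CPM (Hmox2-/-). Ptgds levels were higher in every Hmox2-/- heart and lower in every Hmox2-/- EC library than in wild type. Its interaction was 4.75 (SE 0.42, adjusted p = 2.42e-05), from log2 fold changes of 1.73 in hearts (adjusted p = 1.03e-04) and -3.03 in ECs (adjusted p = 1.00e-04). Ephb1, an ephrin receptor, was 7.57, 7.83, 4.93 and 7.01 CPM in wild-type hearts and 43.6, 43.7 and 47.5 CPM in Hmox2-/- hearts. In ECs Ephb1 was 1.62, 0.943 and 1.39 CPM in wild-type and 0.421, 0.796 and 0.270 CPM in Hmox2-/- mice. Ephb1 was thus higher in every Hmox2-/- heart and lower in every Hmox2-/- EC library. Ephb1 had log2 fold changes of 2.73 in hearts (adjusted p = 3.98e-06) and -1.41 in ECs (adjusted p = 0.00572), and an interaction of 4.14 (SE 0.39, adjusted p = 2.58e-05). Both were near 1 CPM or below in the ECs, so their EC fall rests on few counts. Poln, a DNA polymerase, was 1.33, 1.07, 0.628 and 0.678 CPM in wild-type hearts and 7.34, 4.47 and 3.53 CPM in Hmox2-/- hearts. Poln levels in ECs were 11.9, 13.1 and 9.41 CPM (wild-type) and 4.35, 4.69 and 5.59 CPM (Hmox2-/-). No ranges of Poln overlapped, with Hmox2-/- libraries higher in heart and lower in ECs. For Poln the log2 fold changes were 2.57 in hearts (adjusted p = 9.26e-05) and -1.23 in ECs (adjusted p = 0.004), giving an interaction of 3.81 (SE 0.40, adjusted p = 5.75e-05). Irs3, an insulin receptor substrate, had an interaction of 3.18 (SE 0.59, adjusted p = 0.00191). Oxld1 and Immp2l, of mitochondria, had 2.09 (SE 0.31, adjusted p = 6.00e-04) and 2.05 (SE 0.39, adjusted p = 0.00234).

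Opposite changes in the other direction were led by 2 vomeronasal receptor genes and Gcnt1. Gcnt1, which builds branched O-glycans, was 22.5, 21.9, 40.1 and 61.0 CPM in wild-type hearts and 4.25, 5.25 and 5.48 CPM in Hmox2-/- hearts. In ECs Gcnt1 was 27.3, 13.6 and 26.7 CPM in wild-type and 80.6, 78.5 and 70.4 CPM in Hmox2-/- mice. For Gcnt1 genotypes were apart in both tissues, lower in Hmox2-/- hearts and higher in Hmox2-/- ECs. Its interaction was -4.65 (SE 0.49, adjusted p = 5.75e-05), from log2 fold changes of -2.89 in hearts (adjusted p = 1.56e-04) and 1.76 in ECs (adjusted p = 0.00194). Vmn2r76 and Vmn1r55, receptors of the vomeronasal organ, were also lower in Hmox2-/- hearts and higher in Hmox2-/- ECs, with interactions of -4.83 (SE 0.42, adjusted p = 2.42e-05) and -4.64 (SE 0.44, adjusted p = 2.85e-05). With the offset the interactions were -3.04 and -3.27, from heart effects of only -0.18 and -0.32 and EC effects of 2.86 and 2.95. Sfrp4, a secreted inhibitor of Wnt signalling, was 0.947, 0.671, 0.870 and 0.814 CPM in wild-type hearts and 0.112, 0.501 and 0.311 CPM in Hmox2-/- hearts. Sfrp4 levels in ECs were 48.7, 36.4 and 70.3 CPM (wild-type) and 179, 209 and 220.1 CPM (Hmox2-/-). Sfrp4 levels were lower in every Hmox2-/- heart and higher in every Hmox2-/- EC library than in wild type. Sfrp4 had log2 fold changes of -1.37 in hearts (adjusted p = 0.0406) and 1.97 in ECs (adjusted p = 3.91e-05), and an interaction of -3.34 (SE 0.49, adjusted p = 5.73e-04). Sfrp4 was near or below 1 CPM in every heart. Podn, a small proteoglycan of matrix, was 13.3, 12.6, 8.17 and 8.01 CPM in wild-type hearts and 3.43, 4.67 and 1.94 CPM in Hmox2-/- hearts. In ECs Podn was 13.5, 16.4 and 26.8 CPM in wild-type and 41.7, 36.8 and 37.1 CPM in Hmox2-/- mice. Podn was thus lower in every Hmox2-/- heart and higher in every Hmox2-/- EC library. The interaction of Podn was -2.64 (SE 0.41, adjusted p = 7.51e-04), the difference between log2 fold changes of -1.62 in hearts (adjusted p = 0.00277) and 1.02 in ECs (adjusted p = 0.0157). Mtcp1, Plagl1, Nckap5, Prrg1 and Hmcn2 had interactions of -3.11, -2.42, -2.49, -2.28 and -2.58, each with adjusted p of at most 0.05 in the interaction and in both tissues.

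**Figure D5:**
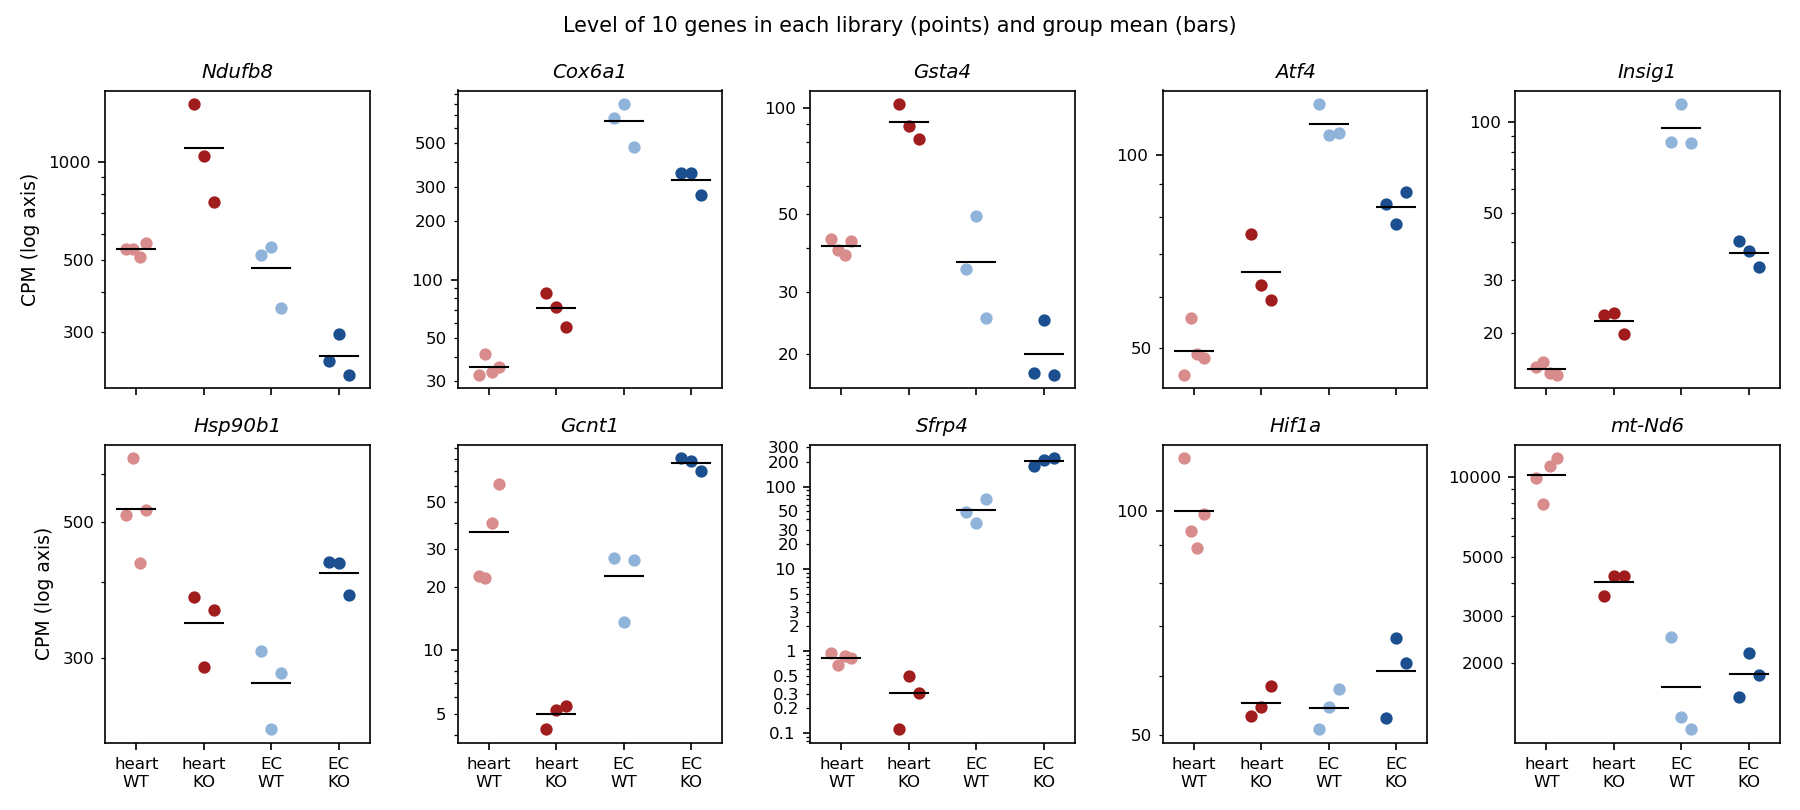
CPM (y axis, log scale) of 10 genes in each of the 13 libraries, by tissue and genotype. Ndufb8, Cox6a1, Gsta4, Atf4 and Insig1 are higher in Hmox2-/- hearts and lower in Hmox2-/- ECs, and Hsp90b1, Gcnt1 and Sfrp4 are the reverse. Hif1a and mt-Nd6 are lower in Hmox2-/- hearts.

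The largest negative interactions came from genes that fell in heart or rose in ECs. Ptprn2, a receptor phosphatase of secretory granules, was 17.8, 18.1, 20.2 and 18.3 CPM in wild-type hearts and 0.0373, 0.0386 and 0.155 CPM in Hmox2-/- hearts. Ptprn2 levels in ECs were 0.140, 0.510 and 0.141 CPM (wild-type) and 0.158, 0.199 and 0.189 CPM (Hmox2-/-). The EC ranges of Ptprn2 overlapped, while Hmox2-/- hearts were all lower than wild type. Its interaction was -7.32 (SE 0.75, adjusted p = 4.84e-05), from log2 fold changes of -7.85 in hearts (adjusted p = 6.52e-08) and -0.53 in ECs (adjusted p = 0.441). Ptprn2 was thus present in wild-type hearts and near 0 in Hmox2-/- hearts and in all ECs, so its fold change rests on few counts. Mboat2, a lysophospholipid acyltransferase, was 39.4, 40.6, 42.7 and 41.1 CPM in wild-type hearts and 7.79, 9.95 and 8.23 CPM in Hmox2-/- hearts. In ECs Mboat2 was 1.59, 1.12 and 1.11 CPM in wild-type and 1.90, 1.31 and 2.08 CPM in Hmox2-/- mice. Mboat2 was lower in all Hmox2-/- hearts and overlapped in ECs. Mboat2 had log2 fold changes of -2.24 in hearts (adjusted p = 1.06e-06) and 0.48 in ECs (adjusted p = 0.0857), and an interaction of -2.72 (SE 0.25, adjusted p = 2.42e-05). Wdr41 had an interaction of -6.35 (SE 1.55, adjusted p = 0.00844), but its libraries varied within groups, with 18.9, 18.3, 17.2 and 5.74 CPM in wild-type hearts, 2.94, 20.1 and 21.6 CPM in Hmox2-/- hearts, 0, 0 and 0.188 CPM in wild-type ECs and 8.35, 0.484 and 8.70 CPM in Hmox2-/- ECs. Its heart ranges overlapped. Fgf9, a fibroblast growth factor, was 12.5, 8.59, 10.4 and 9.59 CPM in wild-type hearts and 6.11, 6.79 and 7.34 CPM in Hmox2-/- hearts. Fgf9 levels in ECs were 0.866, 0.892 and 1.48 CPM (wild-type) and 4.98, 3.58 and 5.46 CPM (Hmox2-/-). No ranges of Fgf9 overlapped, with Hmox2-/- libraries lower in heart and higher in ECs. For Fgf9 the log2 fold changes were -0.59 in hearts (adjusted p = 0.0572) and 2.10 in ECs (adjusted p = 5.71e-05), giving an interaction of -2.69 (SE 0.32, adjusted p = 1.30e-04). Itgb6, an integrin subunit, Phex, an endopeptidase, and Spaca6 had interactions of -3.03, -2.90 and -3.33. With the offset Phex had -1.81 (adjusted p = 0.0931) and did not pass.

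A change of the same direction but different size was seen in 69 genes. Trap1, the HSP90 of mitochondria, was 6.44, 7.96, 9.09 and 8.46 CPM in wild-type hearts and 223, 207 and 205.0 CPM in Hmox2-/- hearts. In ECs Trap1 was 12.6, 13.5 and 12.7 CPM in wild-type and 103, 112 and 105 CPM in Hmox2-/- mice. No Trap1 value of a wild-type library reached into the Hmox2-/- range, which was higher in both tissues. Its interaction was 1.66 (SE 0.15, adjusted p = 2.42e-05), from log2 fold changes of 4.70 in hearts (adjusted p = 6.02e-12) and 3.04 in ECs (adjusted p = 7.75e-10). Trap1 lies at chr16:3856215-3895716 and Hmox2 at chr16:4544216-4589816 (GRCm39). Pttg1, securin, was 1.70, 1.74, 1.64 and 2.08 CPM in wild-type hearts and 85.2, 72.4 and 62.1 CPM in Hmox2-/- hearts. Pttg1 levels in ECs were 4.27, 2.88 and 2.14 CPM (wild-type) and 39.1, 30.9 and 26.9 CPM (Hmox2-/-). The Pttg1 groups were apart in both tissues, with Hmox2-/- higher. Pttg1 had log2 fold changes of 5.34 in hearts (adjusted p = 3.62e-09) and 3.39 in ECs (adjusted p = 3.67e-07), and an interaction of 1.95 (SE 0.31, adjusted p = 8.26e-04). Both rose by far more than the spread between libraries in each tissue, and further in heart. With the offset the interactions were 1.45 (adjusted p = 7.70e-05) for Trap1 and 1.24 (adjusted p = 0.00503) for Pttg1.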

How the data were processed

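RNA from 4 wild-type and 3 Hmox2-/- hearts and from 3 wild-type and 3 Hmox2-/- aortic EC preparations was sequenced. Per the submitters' processing notes, the authors quantified transcripts with kallisto 0.44.0. Each deposited file lists estimated counts, TPM and transcript lengths. Estimated counts of all transcripts of a gene were added and rounded to whole numbers. Deposited TPM values entered only an alternative that rebuilds counts from length-scaled TPM. The study names GENCODE M32 as the annotation. Transcripts were matched to genes with GENCODE M39 (115140 of 118489, 97.2%), and unmatched transcripts, with 0.755 to 1.01% of the counts of a library, were left out. No column belonged to another series.

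edgeR 4.0.16 in R 4.3.3 was run with filterByExpr (minimum count 10), TMM factors and the quasi-likelihood test on 4 group means over all 13 libraries, without a replicate term. The interaction was the contrast of the 2 genotype effects, with Benjamini-Hochberg adjustment over all 15938 genes, called at an adjusted p of at most 0.05, with a log2 difference of at least 1 where stated. "More positive" and "more negative" refer to heart minus ECs. The biological coefficient of variation was 0.201 in the joint fit, 0.241 in ECs alone and 0.149 in hearts alone. Gene lists were described by counts and medians and not tested as sets. DESeq2 1.42.0, limma 3.58.1 (voom), other filters, normalizations and gene sets, the replicate block and fits without libraries were the alternatives. The length and GC offset subtracted each library's lowess trend (span 0.3). A gene is said to share words where at least 20% of its 31-base transcript words occur in another gene. On simulated data with 200 of 15617 genes given a log2 interaction of 2, edgeR called 196 and 8 unchanged genes, with a median recovered value of 1.96, DESeq2 196 and 16, and limma voom 191 and 4. The simulation gave both tissues the dispersions of the joint fit, changed Hmox2-/- hearts alone and held no length or GC trend. Its counts therefore do not measure false calls in the real data.

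Genes were named by 5 rules. Hmox2 and the Y-linked genes came first. The second rule took the 12 called genes per direction with the largest interaction, and the third the 10 per direction with the largest opposite tissue effects. Both required a mean of at least 10 CPM in a group, more than 3 counts in a library of each group, and under 20% shared words, and left out predicted genes and pseudogenes. The fourth took up to 4 members per list with the smallest interaction p, besides list members described for their role, and the last the cell type markers. Members and lists were chosen with earlier results of these data known. Replicate numbers recur in all groups, but deviations of same-numbered libraries correlated at -0.048 to 0.172 over 18 pairs of libraries, 3 of them above 0.1, so the numbers were not taken to pair the libraries. Because the labels do not say more than that each library is a separate sample, p-values measure the spread between these samples. Depth limits genes of low counts most, above all in the shallowest library. Promoters were taken from RefSeq (GRCm38.p6). Figures were drawn with matplotlib 3.10.9. Results for a few genes that the naming rules select are not reported here.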

Additional observations from a re-analysis of the deposited data

Results flagged for a closer look

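The interaction itself is a difference between 2 tissues under the same contrast, and the tests of that difference gave 1288 genes with a more positive and 1168 with a more negative effect in heart, and 678 genes that changed in opposite directions.

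Among the named genes, 12 had a wild-type heart library that stood apart from the other 3 by Dixon's criterion. Chance flags about 1 in 20 groups, and 266 genes were examined. Groups of 3 libraries were not tested. The libraries that stood apart from below or above were heart WT 1 for Vmn2r76 (7.57 CPM), Hspb2 (39.2 CPM), Canx (364 CPM), Hjv (209 CPM), Dhcr7 (10.98 CPM) and Bpgm (21.8 CPM), heart WT 2 for Gstm2 (71.9 CPM) and Pln (6801 CPM), and heart WT 4 for Wdr41 (5.74 CPM), Psmb6 (88.4 CPM), Map1lc3a (323 CPM) and Csrp3 (913 CPM). Heart WT 1, with 6 of the 12, was also the library with the fewest counts.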

How the results depend on the processing

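Counts past 2-fold stayed within 1.5 times of 1288 and 1168 with upper-quartile factors (1036 and 1393), DESeq2 (1420 and 1261), limma voom (1128 and 1304), no filter (1376 and 1153), length-scaled TPM (1165 and 1122), protein-coding genes alone (1187 and 1040), no genes that share words (1059 and 922) and no mitochondrially encoded genes (1285 and 1156). They did not with the test against a 2-fold difference (216 and 306), which is stricter by construction, and the length and GC offset left 743 more positive genes and 275 with opposite changes. Leaving out any 1 library gave 1035 to 1519 more positive, 908 to 1392 more negative and 3344 to 5201 at the adjusted p alone, and 330 to 951 with opposite changes. Added after seeing the data, the fit without heart WT 1 and EC WT 2 gave 317 opposite changes, and the fit without EC KO 2 and EC KO 3 gave 797, 521, 1649 at the adjusted p alone and 104 with opposite changes, from fewer libraries.

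The replicate block gave 1205 and 1002 genes past 2-fold and 588 opposite changes, and the block within genotype 1164 and 912. Neither block changed the counts past 2-fold by over 1.5 times, and the replicate block did not change the count of opposite changes by as much. The numbers share only a name (see the pairing check among the methods). The block within genotype gave 63 opposite changes, but there each tissue effect compares only the first Hmox2-/- pair with the first wild-type pair, by construction of the pair terms.

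Of 8240 alternative values of 319 named genes, 7716 kept direction and side of the threshold, 430 (99 genes) lost and 89 (38 genes) gained a call, and 5 reversed. With the offset Hmox2 went to -0.58, Rpl36 to -0.17, Rrm2b to 0.26 and Cdh19 to 1.16, and Ddx3y went to -1.21 without EC KO 2 and EC KO 3. The cause was not tested. Of 1247 list medians 158 moved, in 45 lists.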
